A study of Homo sapiens with 8 samples.

Results

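The S100 genes S100A2, S100A3, S100A4, S100A6, S100A10, S100A11, S100A13 and S100A16 were followed through input RNA and RNA immunoprecipitated with an antibody against 8-oxo-7,8-dihydroguanosine (8-oxoG), the oxidised form of guanosine. They were taken as a list of 8 gene symbols, matched to 8 of the 58735 genes in the deposited tables. All 8 passed the filter on low counts that left 18242 genes for testing. The cells were BEAS-2B, an immortalised human bronchial epithelial line grown on collagen-coated inserts at an air-liquid interface. They were exposed for 2 h to humidified clean air (CA, 0 ppm formaldehyde) or to air with 1 ppm formaldehyde (FA), and every culture then recovered for 6 h in fresh medium. From each condition, rRNA-depleted total RNA formed the input (CA_IN and FA_IN), and a portion of that input went through the antibody pull-down (CA_IP and FA_IP). Each of the 4 groups held 2 biological replicates, deposited with the numbers 1 and 3. The sample descriptions name antibody clone 15A3 and the extraction protocol names clone 2E2, and there was no pull-down with a control antibody among the samples analysed here.

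S100 proteins are small proteins with paired EF-hand helices that mostly bind calcium and then dock onto partner proteins. Most of them are encoded side by side on the long arm of chromosome 1, next to the genes of the epidermal differentiation complex, and most members have short mRNAs. In stratified and airway epithelia they take part in membrane organisation with annexins, in cytoskeletal dynamics with myosin and tropomyosin, and in the release of cytokines and growth factors that lack a signal peptide. The antibody recognises oxidised guanosine, so the guanine content of each mRNA is given beside its pull-down.

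All 8 genes lie on the minus strand of chromosome 1 in GRCh38, within 1648446 bases. S100A10 (chr1:151982915-151993859) and S100A11 (chr1:152032506-152047907) are at the lower end of that span. S100A6 (chr1:153534599-153536244), S100A4 (chr1:153543613-153550136), S100A3 (chr1:153547329-153549258), S100A2 (chr1:153561108-153567890), S100A16 (chr1:153606886-153613145) and S100A13 (chr1:153618787-153631360) follow. The coding regions of 3 of them are printed because S100A2 is the most abundant member and did not pass the pull-down test, whereas S100A6, nearly as rich in guanine, and S100A10, poorer in guanine, were both lower in the immunoprecipitated RNA. Each is the coding region of the isoform with the largest count, from GENCODE 44, spliced, 5′ to 3′ and without the stop codon, with guanines in capitals.
S100A2: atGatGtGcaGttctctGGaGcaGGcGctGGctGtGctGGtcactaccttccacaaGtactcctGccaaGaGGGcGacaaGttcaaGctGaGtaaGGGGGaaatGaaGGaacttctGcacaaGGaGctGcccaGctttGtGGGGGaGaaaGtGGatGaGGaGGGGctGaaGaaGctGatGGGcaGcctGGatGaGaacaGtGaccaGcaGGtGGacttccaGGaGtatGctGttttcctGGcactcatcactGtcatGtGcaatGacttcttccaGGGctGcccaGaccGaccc
S100A6: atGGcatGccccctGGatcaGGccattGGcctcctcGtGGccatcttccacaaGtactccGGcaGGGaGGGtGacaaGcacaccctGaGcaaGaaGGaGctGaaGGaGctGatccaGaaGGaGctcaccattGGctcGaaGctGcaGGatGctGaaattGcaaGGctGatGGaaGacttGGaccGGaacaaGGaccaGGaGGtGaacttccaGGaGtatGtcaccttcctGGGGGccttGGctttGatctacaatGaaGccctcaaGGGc
S100A10: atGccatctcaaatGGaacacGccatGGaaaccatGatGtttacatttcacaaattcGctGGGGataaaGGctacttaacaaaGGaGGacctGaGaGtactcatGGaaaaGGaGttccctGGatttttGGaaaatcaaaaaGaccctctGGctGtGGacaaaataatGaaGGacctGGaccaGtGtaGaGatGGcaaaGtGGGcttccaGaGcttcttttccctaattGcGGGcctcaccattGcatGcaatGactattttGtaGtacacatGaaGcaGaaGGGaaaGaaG
Guanine made up 94 of 294 bases (31.97%) in S100A2, 82 of 270 (30.37%) in S100A6 and 71 of 291 (24.40%) in S100A10. Of the 13822 tested protein-coding genes with a coding sequence, 87.89% had a lower guanine share than S100A2, 78.53% a lower share than S100A6 and 31.58% a lower share than S100A10. The longest run of guanines was 5 bases in S100A2, 5 bases in S100A6 and 4 bases in S100A10. S100A11 was the poorest in guanine of the 8, at 22.22%, and S100A13, at 30.61%, was the closest to S100A6.

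Input libraries held 26152651 to 45144392 expected counts and immunoprecipitated libraries 16883500 to 23658012. RN7SL1 and RN7SL2, the RNA components of the signal recognition particle, took 33.3% to 36.6% of the transcripts-per-million (TPM) in inputs and 40.7% to 44.1% in pull-downs. The epithelial identity of the line was checked with 11 markers, and all 11 passed the count filter, among them KRT5 at 710 and 951 counts-per-million (CPM) in CA_IN and EPCAM at 43.8 and 42.8. All 5 mesenchymal markers passed as well, with VIM (1034 and 812 CPM) and FN1 (984 and 997 CPM) in the range of KRT5, CDH2 at 43.7 and 35.1 CPM, COL1A1 at 7.14 and 9.39 CPM and COL1A2 at 0.55 and 0.63 CPM. The 4 markers of differentiated airway cells had no more than 7 counts in any library (FOXJ1 of ciliated cells 7, MUC5AC of goblet cells 3, SCGB1A1 of club cells 2, and SFTPC of alveolar cells 7). The cells therefore expressed epithelial keratins but not the defining markers of a differentiated airway at this depth. Of the 5 leukocyte markers, PTPRC had at most 2 counts in any library, CD3E at most 1 and LYZ at most 9. The other two, CD14 (4.29 and 4.94 CPM in CA_IN) and CD68 (8.70 and 6.61 CPM), passed the count filter.

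The first question was how abundant each S100 mRNA was in clean-air cells. S100A2, a protein of basal epithelial cells and a target of the p53 family, was by far the most abundant member. Per length, its level in CA_IN was 902 and 865 TPM, which placed it at rank 32 of 19831 protein-coding genes in both replicates. S100A6, or calcyclin, followed at 346 and 292 TPM (ranks 112 and 120). S100A10, the annexin A2 partner that has lost calcium binding, stood at 119 and 97.5 TPM (ranks 253 and 301). S100A11, which pairs with annexin A1, stood at 96.2 and 78.9 TPM, and S100A16, a broadly expressed member, at 81.9 and 77.9 TPM. S100A10 was above S100A11 and S100A16 in each of the 4 input libraries. The ranges of S100A11 and S100A16 overlapped, so that the order of this pair was not resolved by the replicate spread. Within each of the 4 input libraries S100A11 had the higher TPM of the S100A11 and S100A16 pair.

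S100A13, which carries FGF1 and IL1A out of the cell, was measured at 44.96 and 39.30 TPM. The remaining members were scarce. S100A4, the myosin-binding protein known from motile cells, reached 1.10 and 1.83 TPM, and S100A3, a cysteine-rich protein known from hair cuticle, 0.77 and 0.99 TPM. These correspond to 62 and 82 counts for S100A4 and 47 and 60 counts for S100A3 in CA_IN, so that both are measured with much less precision than the other members. Ordered by CPM rather than by TPM, S100A16 moved from place 5 to place 3, ahead of S100A10 and S100A11.

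**Figure D1:**
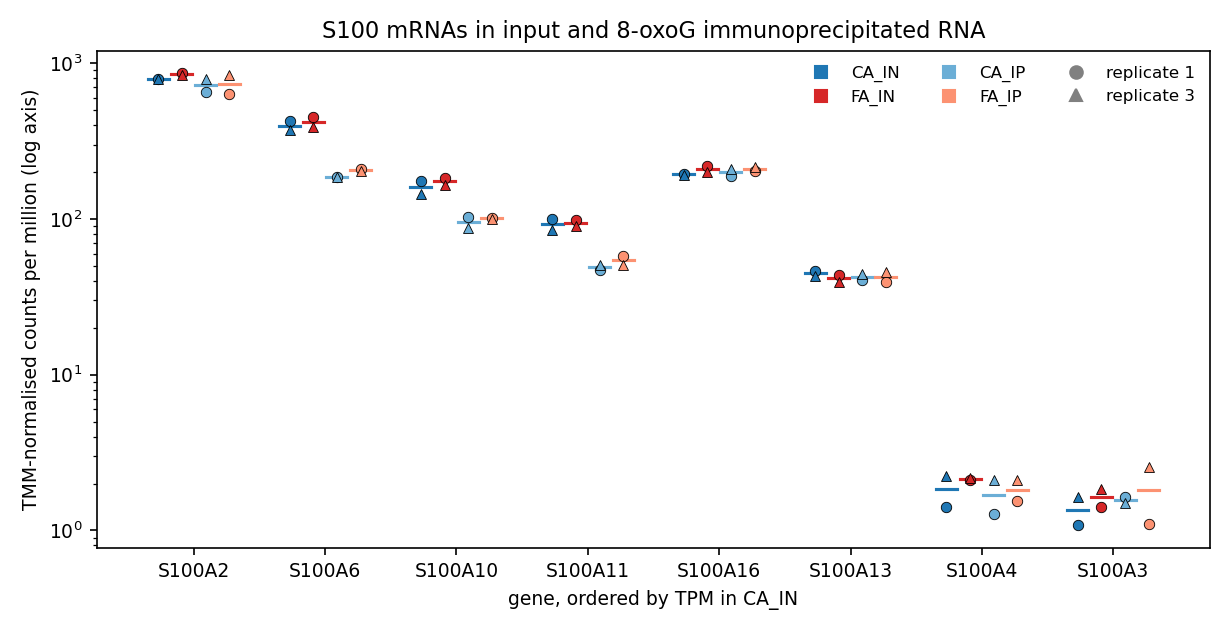
TMM-normalised CPM (vertical log axis) of the 8 S100 genes in every library, ordered by TPM in CA_IN. Points are libraries (circles replicate 1, triangles replicate 3) and short lines are group means of 2 libraries. S100A6, S100A10 and S100A11 sit lower in CA_IP and FA_IP than in both input groups, and S100A3 and S100A4 lie near 1 to 3 CPM with wide spread.

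Reads were assigned without a strand setting, so overlapping genes matter for some members. S100A3 and S100A4 overlap each other on the same strand. S100A13 overlaps S100A1 on the opposite strand, which had 40 to 72 counts per library, or 4.15% of the S100A13 counts over all libraries, and the lncRNA ENSG00000271853 on its own strand, with 2.24%. The antisense lncRNAs over S100A6 and S100A11 had 0.045% and 1.26% of the counts of these genes.

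The pull-down was compared with the input in clean air. S100A6, S100A10 and S100A11 were lower in CA_IP than in CA_IN, and no member was higher. These are 3 of 8 members, where 1.77% of all 18242 tested genes were lower and 0.148% were higher (edgeR quasi-likelihood test, Benjamini-Hochberg adjusted p under 0.05). The 3 members that passed were also the only 3 with an unadjusted p under 0.05, and DESeq2 on the 8 libraries likewise found 3 lower and 0 higher. Fold changes are TMM-normalised, and the median log2 fold change (log2FC) of all tested genes was 0.02.

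S100A6 had 425 and 371 CPM in CA_IN and 185 and 186 CPM in CA_IP. The fitted level was 2.14-fold lower (log2FC -1.10, standard error 0.10, 95% interval -1.33 to -0.87, edgeR adjusted p = 5.37e-04). Among the 13835 tested protein-coding genes, 1.34% had a lower log2FC than S100A6. S100A11 had 99.97 and 84.78 CPM in CA_IN and 47.2 and 51.0 CPM in CA_IP. It was 1.88-fold lower (log2FC -0.91, interval -1.17 to -0.65, edgeR adjusted p = 0.0034). S100A10 had 175 and 146 CPM in CA_IN and 103 and 87.6 CPM in CA_IP. It was 1.69-fold lower (log2FC -0.75, interval -1.02 to -0.49, edgeR adjusted p = 0.012), but the adjusted p rose to 0.082 without CA_IN replicate 1, to 0.10 without CA_IP replicate 3 and to 0.052 with only the 4 clean-air libraries in the fit.

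The other 5 members did not pass. S100A2 had 798 and 796 CPM in CA_IN and 657 and 796 CPM in CA_IP. Replicate 1 of the pull-down was lower and replicate 3 lay at the input level, and the log2FC was -0.13 with an interval of -0.45 to 0.18. S100A16 had 194 and 193 CPM in CA_IN and 188 and 209 CPM in CA_IP, a log2FC of 0.04 (-0.16 to 0.24). S100A13 had 46.7 and 43.2 CPM in CA_IN and 40.8 and 44.1 CPM in CA_IP, a log2FC of -0.08 (-0.35 to 0.18). The intervals of S100A2, S100A16 and S100A13 do not reach the log2FC of -0.75 measured for S100A10.

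S100A4 had 1.42 and 2.24 CPM in CA_IN and 1.27 and 2.12 CPM in CA_IP. S100A3 had 1.08 and 1.64 CPM in CA_IN and 1.65 and 1.49 CPM in CA_IP. Both pairs of groups overlapped. The intervals of the log2FC ran from -0.87 to 0.64 for S100A4 and from -0.68 to 1.12 for S100A3. For S100A4 a change of the size seen in S100A10 was thus not excluded.

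After formaldehyde the pull-down gave the same calls. S100A6, S100A10 and S100A11 were lower in FA_IP than in FA_IN, 3 of 8 members against 1.47% of all tested genes. No member was higher, against 0.0329% of all genes, and the 3 members were again the only ones with an unadjusted p under 0.05. DESeq2 on the 8 libraries also found 3 lower and 0 higher.

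S100A6 had 454 and 391 CPM in FA_IN and 209 and 203 CPM in FA_IP. It was 2.05-fold lower (log2FC -1.04, interval -1.27 to -0.81, edgeR adjusted p = 9.86e-04). S100A10 had 185 and 166 CPM in FA_IN and 101 and 101 CPM in FA_IP, 1.74-fold lower (log2FC -0.80, interval -1.07 to -0.53, edgeR adjusted p = 0.010). S100A11 had 98.7 and 89.9 CPM in FA_IN and 57.5 and 51.0 CPM in FA_IP, 1.74-fold lower (log2FC -0.80, interval -1.06 to -0.54, edgeR adjusted p = 0.0089). For each of the 3 genes every pull-down library was below every input library of its treatment. S100A2 separated from its inputs in the same way in both treatments, and S100A4 did after formaldehyde, though neither was called. Such separation was thus not particular to the 3 called genes. The share of all tested genes that separate in this way is not given for either treatment. No change is therefore read from the separation itself. Without FA_IN replicate 1 the adjusted p rose to 0.091 for S100A10 and 0.11 for S100A11, without FA_IP replicate 3 to 0.084 and 0.12, and without FA_IP replicate 1 to 0.094 for S100A10. With FA_IN replicate 1 or FA_IP replicate 3 left out, S100A6 was therefore the 1 member still called.

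S100A2 had 862 and 839 CPM in FA_IN and 631 and 838.7 CPM in FA_IP. As in clean air, replicate 1 of the pull-down was the lower library, and the log2FC was -0.21 (-0.53 to 0.10). S100A16 had 218 and 200 CPM in FA_IN and 203 and 215 CPM in FA_IP, a log2FC of 0.00 (-0.20 to 0.20). S100A13 had 43.9 and 39.5 CPM in FA_IN and 39.4 and 45.7 CPM in FA_IP, a log2FC of 0.03 (-0.24 to 0.30). S100A4 had 2.12 and 2.17 CPM in FA_IN and 1.55 and 2.09 CPM in FA_IP (log2FC -0.22, -0.98 to 0.53). S100A3 had 1.41 and 1.85 CPM in FA_IN and 1.11 and 2.55 CPM in FA_IP (log2FC 0.18, -0.71 to 1.07), and its groups overlapped.

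**Figure D2:**
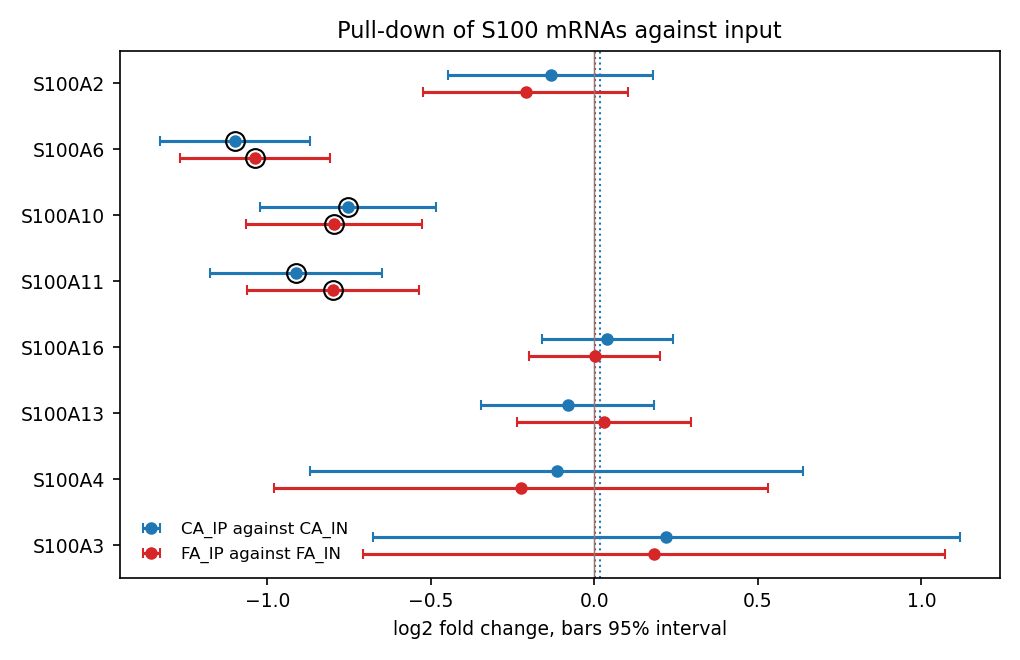
Log2 fold change of immunoprecipitated against input RNA (horizontal axis) for each member, clean air in blue and formaldehyde in red. Bars are 95% intervals of the fit with 2 libraries a group, circles mark adjusted p under 0.05 and dotted lines the median of all tested genes. The circled genes are S100A6, S100A10 and S100A11 in both treatments.

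The unequal pull-down was also read within each library, where no scaling between libraries enters. This comparison was chosen after the values were seen and is given without a test. S100A6 counts were 46.6% to 53.3% of the S100A2 counts in the 4 input libraries and 23.4% to 33.1% in the 4 pull-down libraries. S100A10 stood at 18.30% to 21.98% of S100A2 in inputs and 11.01% to 16.04% in pull-downs, and S100A11 at 10.7% to 12.5% and 6.08% to 9.10%. The ranges of these 3 genes did not overlap. S100A16 moved the other way, from 23.8% to 25.3% of S100A2 in inputs to 25.7% to 32.1% in pull-downs, also without overlap. The share of all genes whose ratio to S100A2 separates in this way is not given. Nothing further is therefore read from the lack of overlap. S100A2 as the reference was itself lower in the replicate 1 pull-downs (log2 ratio to input -0.28 in clean air and -0.45 after formaldehyde). A lower reference raises all of these percentages. In counts S100A6 thus exceeded S100A16 in every input library, and the counts of both genes were close in the pull-down libraries of clean air (4386 and 3865 for S100A6, 4461 and 4346 for S100A16).

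The scale of the whole library affects how these values are read. On the TPM scale the median gene was 0.96 (log2) higher in CA_IP than in CA_IN, and 0.90 higher in FA_IP than in FA_IN. The S100A6 log2 difference in TPM was -0.21 in clean air, or -1.17 relative to that median, and after formaldehyde it was -1.07 relative to the median. S100A10 and S100A11 had log2 TPM differences of 0.09 and -0.03 in clean air, or -0.87 and -0.99 relative to the median. After formaldehyde their differences were 0.04 and 0.07, or -0.86 and -0.83 relative to the median. On the TPM scale S100A10 and S100A11 were thus close to their inputs, and lower only relative to the median gene. With total counts in place of TMM the median log2FC of all genes moved to 0.16 in clean air and 0.17 after formaldehyde. The calls over all genes then shifted from 322 lower and 27 higher to 336 lower and 821 higher in clean air, while the 3 members stayed lower in both treatments.

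Mean fragment length was 217 to 223 bases in inputs and 210 to 234 bases in pull-downs. With the effective length of each gene in each library as an offset, an alternative added after seeing the data, the log2FC was -1.16 for S100A6, -0.86 for S100A10 and -0.97 for S100A11 in clean air and the 3 genes stayed called.

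The members were next placed by length. Effective length, the number of positions at which a fragment can start, was 376 bases for S100A11, 426 for S100A2, 439 for S100A4 and 447 for S100A6, weighted by counts. Among the 267 tested protein-coding genes with an effective length under 500 bases, the median log2FC in CA_IP was -0.60 and 34.8% were called lower. S100A6 and S100A11 were among those called, and S100A2 and S100A4 were not. In the class of 500 to 1000 bases, with 1038 protein-coding genes, the median was 0.03 and 8.96% were called lower. S100A10 (648 bases) was called in that class, and S100A3 (616), S100A13 (526) and S100A16 (881) were not. Of the 9059 protein-coding genes of 2000 bases and more, 0.088% were called lower. After formaldehyde the shares were 33.3% under 500 bases and 7.71% from 500 to 1000 bases. The lower pull-down of S100A6 and S100A11 was thus in a length class in which over 33% of the genes were lower, and S100A2, in the same class, was not called. The lengths of members with several isoforms depend on the weighting. Weighted by TPM in each library, effective length was 304.9 to 333.8 bases for S100A2, 376.2 to 412.5 for S100A13, which would place it in the shortest class, and 430.8 to 453.2 for S100A6.

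Guanine share ordered the members differently. Classes that divide the genes into 5 equal groups by coding guanine share were chosen after the values were seen. The median log2FC in CA_IP rose from -0.13 in the poorest group (5.88% to 23.03% guanine, which holds S100A11) and -0.04 in the next (S100A10) to 0.06 (S100A16), 0.17 (S100A3, S100A4 and S100A6) and 0.26 in the richest group (30.59% to 48.10%, which holds S100A2 and S100A13). After formaldehyde the medians ran from -0.10 to 0.17. S100A11 and S100A10, the members poorest in guanine, were lower in the pull-down, but S100A6 was in the second richest group and had the lowest log2FC of the 8. Over the whole GENCODE 44 isoform sequences, weighted by isoform counts, guanine was 20.07% for S100A11, 21.67% for S100A10 and 27.33% for S100A6. It was 27.81% to 29.48% for S100A2, S100A3, S100A4, S100A13 and S100A16. In these sequences the 3 members called lower had the lowest guanine shares. S100A4 (27.81%) and S100A16 (27.86%) were each less than 1 percentage point above S100A6. The main S100A6 isoform, ENST00000368719, has 434 bases in GENCODE 44 and 665 in the deposited quantification. For ENST00000368811 of S100A10 the lengths are 671 and 1202 bases. The place of S100A6 in the order over the quantified mRNAs is therefore not settled. The part of length and of guanine in these differences was not tested.

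**Figure D3:**
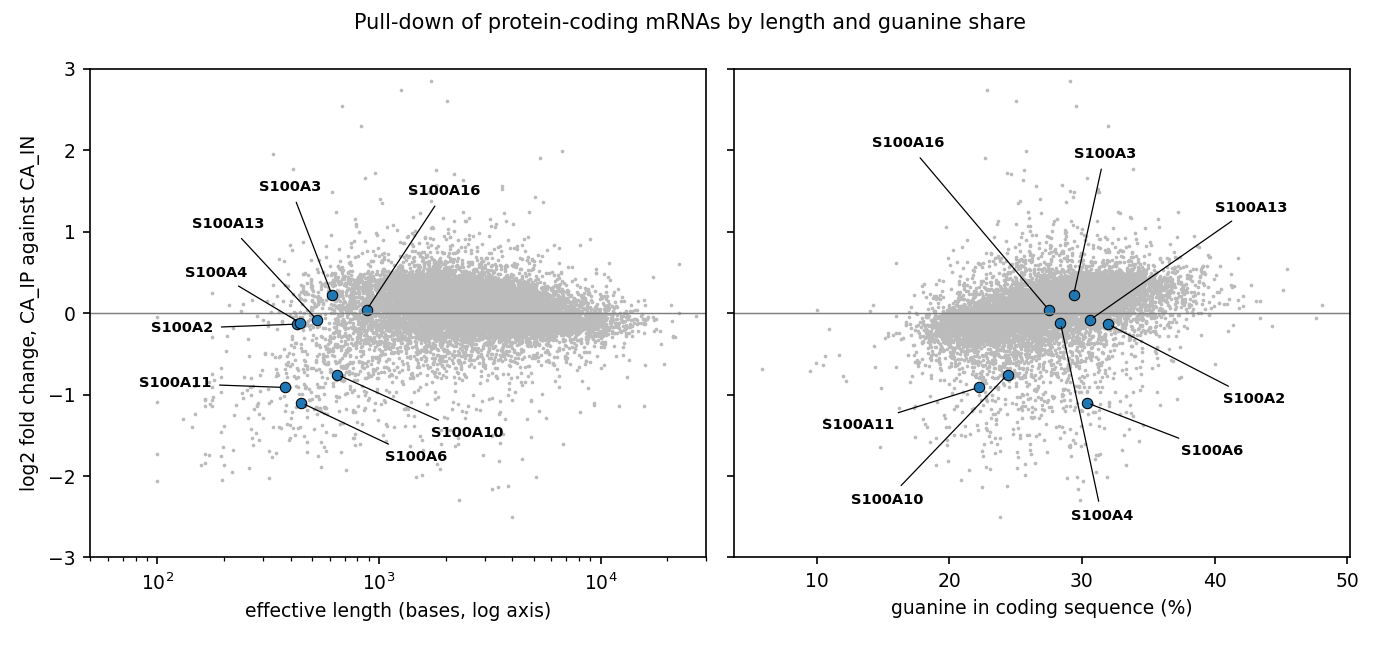
Log2 fold change of CA_IP against CA_IN (vertical axis) for 13822 protein-coding genes in grey and the 8 S100 genes in blue, against effective length (left, log axis) and coding guanine share (right). The panels leave out 24 genes beyond the axes. S100A6 and S100A11 lie in the lower left of the length panel, and S100A6 lies below most genes of similar guanine share.

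The isoforms of each gene were examined to see whether one transcript carried the difference. S100A11 was at least 99.56% ENST00000271638 and S100A6 was 95.75% to 97.36% ENST00000368719 in all libraries, so that the gene sums of these members stand for 1 transcript. S100A16 was 89.91% to 92.77% ENST00000368706. S100A10 was split between ENST00000368809 (616 bases) and ENST00000368811 (1202 bases). The first took 57.04% to 59.68% of the gene in the 4 inputs and 51.80% to 55.75% in the 4 pull-downs, without overlap. For S100A2 the 453-base isoform ENST00000368710 took 55.80% to 57.37% in inputs and 53.31% to 54.81% in pull-downs, likewise without overlap. Of the 6 members other than S100A3 and S100A4, S100A13 was the most divided, with ENST00000339556 at 50.63% and 46.68% in CA_IN and at 37.36% and 43.45% in FA_IN. These are RSEM's estimates of how shared reads divide between isoforms, and no test was made on the shares. How many genes have isoform shares that separate inputs from pull-downs is not given. No change in isoform use is therefore read from the lack of overlap.

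**Figure D4:**
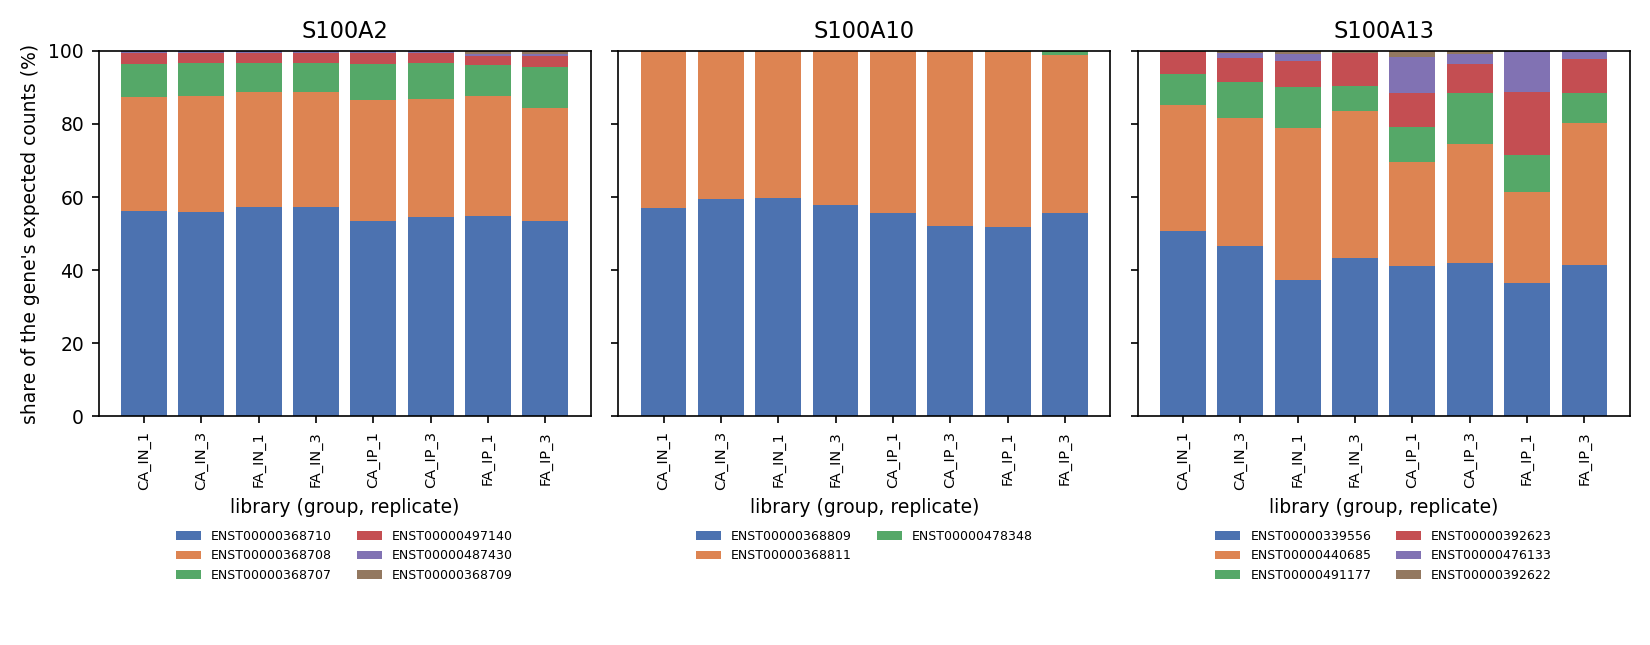
Share of each gene's expected counts (vertical axis, %) assigned to each isoform in the 8 libraries, for S100A2, S100A10 and S100A13. The shorter main isoforms of S100A2 and S100A10 (blue) take a smaller share in the 4 pull-down libraries than in the 4 inputs. The shares are estimates, no test was made on them, and how many genes separate in this way is not given.

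The formaldehyde effect was measured in the input RNA. No listed S100 gene passed the edgeR test between FA_IN and CA_IN. The count was 0 of 8 members, against 0.00548% of all tested genes, and 0 of 8 had an unadjusted p under 0.05 (611 of 18242 genes did). DESeq2 found 0 members as well, both on 8 libraries and on 4. In bulk RNA, fewer cells of a type and less RNA per cell cannot be told apart.

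The intervals show which sizes of change are not excluded. The log2FC was 0.09 for S100A2 (-0.22 to 0.41), 0.09 for S100A6 (-0.14 to 0.31), 0.13 for S100A10 (-0.14 to 0.39) and 0.03 for S100A11 (-0.23 to 0.29). It was 0.11 for S100A16 (-0.09 to 0.31) and -0.11 for S100A13 (-0.37 to 0.16). S100A2 had 862 and 839 CPM in FA_IN against 798 and 796 CPM in CA_IN, and S100A16 had 218 and 200 CPM against 194 and 193 CPM. For these 2 genes both formaldehyde inputs were above both clean-air inputs, whereas the other 6 overlapped. Neither gene passed (edgeR unadjusted p = 0.51 for S100A2 and 0.24 for S100A16). The share of all tested genes that separate in this way is not given, so no change is read from this separation of 2 libraries from 2. S100A4 (log2FC 0.24, -0.48 to 0.95) and S100A3 (log2FC 0.28, -0.59 to 1.15) allow larger changes. For the 6 abundant members all intervals lay within 0.41 of 0 on the log2 scale.

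The pull-down effect was compared between treatments with the interaction of the fit. None of the 8 members passed, and neither did any of the 18242 genes (0%). At an unadjusted p under 0.05 there were 0 members and 195 genes, and DESeq2 found 0 members. The difference of the log2FC after formaldehyde from that in clean air was 0.06 for S100A6 (-0.26 to 0.38), -0.04 for S100A10 (-0.42 to 0.33) and 0.11 for S100A11 (-0.26 to 0.48). Differences within these bounds are not excluded with 2 libraries a group.

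**Figure D5:**
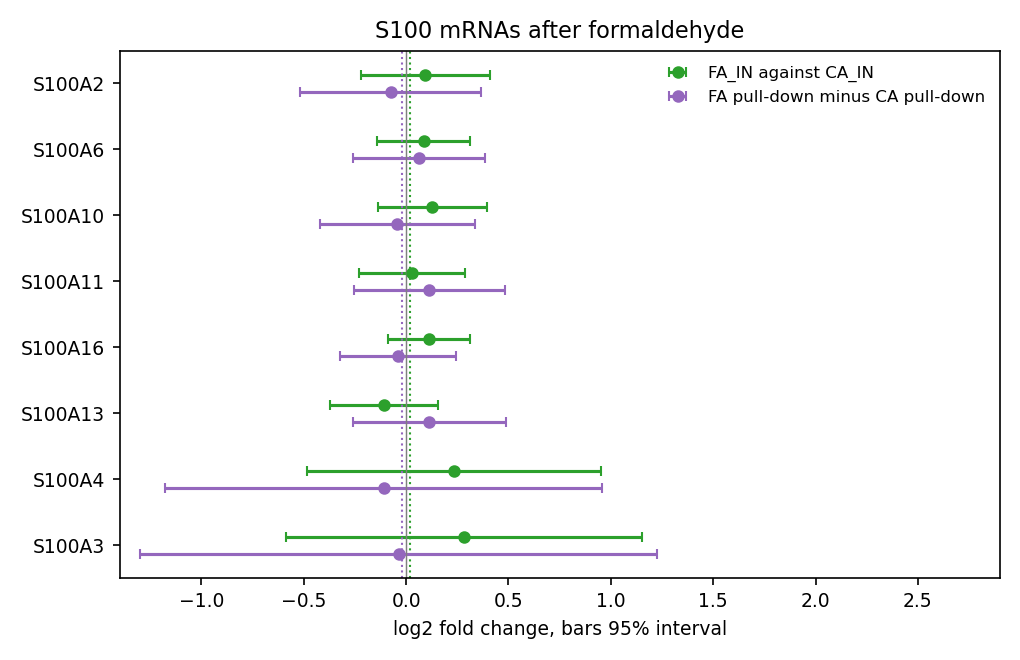
Log2 fold change of FA_IN against CA_IN (green) and difference of the pull-down log2FC between formaldehyde and clean air (purple) for each member, with 95% intervals from groups of 2 libraries. Dotted lines are the medians of all tested genes. All intervals include 0, and those of S100A3 and S100A4 are the widest.

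Partner proteins of the S100 family were listed as 22 genes, and all 22 were tested. In CA_IP 1 was lower and 0 higher, with a median log2FC of 0.16, and in FA_IP 1 was lower and 0 higher with a median of 0.09. The same gene was lower in both: LGALS3, or galectin-3, a secreted lectin, had 77.2 and 70.1 CPM in CA_IN and 48.1 and 44.6 CPM in CA_IP (log2FC -0.67, edgeR adjusted p = 0.0072), and -0.59 after formaldehyde (edgeR adjusted p = 0.017). ANXA2, with which S100A10 forms a complex at the plasma membrane, had 2311 and 2168 CPM in CA_IN and 2735 and 2682 CPM in CA_IP (log2FC 0.27, edgeR adjusted p = 0.24). Its partner S100A10 was lower in the same libraries. ANXA1, the partner of S100A11, had a log2FC of -0.06, CACYBP, which binds S100A6, one of 0.05, and MYH9, the nonmuscle myosin heavy chain bound by S100A4, one of 0.04. With the replicate number as a block, 2 partners were lower and 7 higher in CA_IP, ANXA2 among the higher (log2FC 0.28, edgeR adjusted p = 0.0117), and 2 were lower and 1 higher in FA_IP. Over all 18242 genes this blocked fit called 706 lower and 1235 higher in CA_IP, and 586 lower and 367 higher in FA_IP. No partner passed the test in FA_IN against CA_IN, with or without the block.

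Other EF-hand proteins, among them the larger calpains, were listed as 19 genes, all of them tested. In CA_IP 1 was lower and 1 higher (median log2FC 0.06), and in FA_IP 1 was lower and 0 higher (0.08). MYL12B, a myosin regulatory light chain, was lower in both (log2FC -0.53 and -0.55, edgeR adjusted p = 0.010 and 0.0097). CAPN1, a calcium-dependent protease, was higher in CA_IP (log2FC 0.42, edgeR adjusted p = 0.046) and had 0.29 in FA_IP (edgeR adjusted p = 0.24). MYL6, a myosin essential light chain with an effective length of 469 bases weighted by counts and 32.67% coding guanine, had a log2FC of 0.27 (edgeR adjusted p = 0.23). With the replicate block 1 gene of the list was lower and 5 were higher in CA_IP, MYL6 among the higher (edgeR adjusted p = 0.0335), and 1 was lower and 3 were higher in FA_IP. The blocked calls over all 18242 genes were 706 lower and 1235 higher in CA_IP, and 586 and 367 in FA_IP. No gene of this list passed in FA_IN against CA_IN, with or without the block.

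Of 15 genes of the epidermal differentiation complex next to the S100 genes, 3 were tested and 0 were called in any comparison. The other 13 S100 genes were represented by 6 tested genes, of which 0 passed in any comparison without a replicate block. Their median log2FC was -0.89 in CA_IP and -0.75 in FA_IP. S100A14, with 132 and 151 CPM in CA_IN and 145 and 181 CPM in CA_IP, was the most abundant of them (log2FC 0.20, edgeR adjusted p = 0.73). S100A9, a calprotectin subunit, had 41.6 and 85.0 CPM in CA_IN and 17.4 and 44.3 CPM in CA_IP (log2FC -1.04, edgeR adjusted p = 0.56), and after formaldehyde it had 41.4 and 99.5 CPM in the inputs and 20.7 and 51.4 CPM in the pull-downs. Its input and pull-down groups overlapped, but in 4 of 4 pairs of libraries with the same number the pull-down was lower than the input. With the replicate number as a block, S100A9 passed in CA_IP (log2FC -1.09, edgeR adjusted p = 2.883e-06) and in FA_IP (-0.97, edgeR adjusted p = 1.174e-05). S100A8, the other calprotectin subunit, also passed with the block in CA_IP (-1.31, edgeR adjusted p = 2.373e-04) and in FA_IP (-1.27, edgeR adjusted p = 2.778e-04), which made 2 of the 6 genes lower in each pull-down. Of all 18242 genes the blocked fit called 706 lower in CA_IP and 586 lower in FA_IP. With each RNA pool (treatment and replicate number) as a block, S100A8 and S100A9 were again lower in both pull-downs. S100A14 was then higher in CA_IP (log2FC 0.20, edgeR adjusted p = 0.041) and not called in FA_IP (0.17, edgeR adjusted p = 0.11). That fit called 1067 genes lower and 2111 higher in CA_IP, and 840 and 995 in FA_IP.

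The genes whose pattern over the 8 libraries was most like that of S100A2, by Pearson correlation of log2 CPM, were PRR13 (r = 0.979), HYMAI (0.960), FAU (0.958), ITGB2-AS1 (0.958) and TOMM7 (0.950). These are descriptions over 8 libraries that share 4 groups and differ in depth, and no test was made.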

How the data were processed

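BEAS-2B RNA was sequenced by the authors as 75-bp pairs, trimmed with cutadapt, aligned with STAR 2.6.0a to GRCh38 (Ensembl annotation) and quantified with RSEM 1.2.25. The deposited tables give, per transcript, estimated counts (expected counts), TPM and effective length. The authors' deposited DESeq2 tables of fold changes and p-values were not used, and 2 of the 3 were identical. The members and gene lists were chosen with earlier results of these data known. Expected counts were summed per gene and rounded; genes with at least 10 counts in 2 or more libraries were kept. An edgeR 4.0.16 quasi-likelihood model (R 4.3.3, TMM, prior count 0.125, 4 groups, 8 libraries) gave all contrasts, with Benjamini-Hochberg adjustment over 18242 genes and calls at 0.05. Standard errors and 95% intervals come from the quasi-likelihood F. TPM was used only for order within libraries and where named. Named genes were all members, tested genes of the lists, and the 5 genes most like S100A2. Symbols matched for 58207 of 58735 genes, and 202276 of 206601 transcripts were in GENCODE 44, from which coordinates and sequences come; isoform lengths can differ from the deposited ones. The 2 libraries per group give few degrees of freedom. The p-values rest on a variance estimated from the replicates of all 4 groups and moderated across genes. The main fit did not pair pull-downs with the inputs they were taken from. The fit was tested on simulated data. DESeq2 1.42.0, other scalings, filters, blocks and left-out libraries were alternatives.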

Additional observations from a re-analysis of the deposited data

How the results depend on the processing

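No member changed direction among those called, in any alternative. Counts of members lower in CA_IP ran from 2 to 3 over the left-out libraries and were 3 with DESeq2, other scalings and filters, a prior count of 2 and an effective length offset; edgeR on the 4 clean-air libraries gave 2. In FA_IP the count ran from 1 to 3 over the left-out libraries (1 without FA_IN replicate 1 and 1 without FA_IP replicate 3) and was 3 in all other alternatives run. S100A6 stayed called in every alternative, with log2FC from -1.21 to -0.95 in clean air and -1.12 to -0.86 after formaldehyde. The counts of 0 higher members, 0 changed in input and 0 with an interaction stayed at 0 in every alternative run for them. No fit on 4 libraries was run for the interaction and no block by RNA pool for the inputs, and a threshold of a log2FC beyond 2 was applied to the inputs alone.

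The replicate numbers pair no samples in the labels. The paper describes each treatment's RNA pool as divided into an input and a pull-down fraction, and both carry the same numbers. The block by RNA pool follows that division, which the main fit leaves out. Deviations of same-numbered libraries correlated at 0.38 between CA_IN and CA_IP, 0.25 between FA_IN and FA_IP, 0.28 between the inputs and 0.24 between the pull-downs. The replicate block left 3 members lower in each pull-down, and so did the block by RNA pool, and the called members were the same. Over all genes the block moved the calls from 322 lower and 27 higher to 706 and 1235 for CA_IP, from 268 and 6 to 586 and 367 for FA_IP, and from 1 and 0 to 244 and 14 for FA_IN; by RNA pool they were 1067 and 2111 in CA_IP and 840 and 995 in FA_IP. Without a filter, calls numbered 539 and 147 for CA_IP, 515 and 63 for FA_IP, 79 and 21 for FA_IN and 23 and 29 for the interaction. DESeq2 on 8 libraries called 404 and 101 in CA_IP and, in FA_IP, 371 and 18. With library size only, 243 and 318 were called in FA_IP. Leaving out 1 library gave 184 to 312 lower genes in CA_IP and 119 to 272 in FA_IP. The causes of these shifts were not tested. Depth limits S100A3 and S100A4, at 20 to 82 counts a library.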

Other observations

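S100A8 and S100A9, whose proteins form calprotectin, were higher in replicate 3 than in replicate 1 in all 4 groups. S100A8 had 3.92 and 8.66 CPM in CA_IN, 4.12 and 11.1 CPM in FA_IN, 1.44 and 3.76 CPM in CA_IP, and 1.38 and 4.93 CPM in FA_IP, for replicates 1 and 3. S100A9 had 41.4 and 99.5 CPM in FA_IN and 20.7 and 51.4 CPM in FA_IP. KRT5 (710 and 951 CPM in CA_IN, 741 and 1074 in FA_IN) and TP63 (27.1 and 50.5, 32.0 and 58.0), both of basal epithelial cells, were likewise higher in replicate 3, and these genes were chosen after their values were seen. The other epithelial markers were mixed. KRT17, KRT18 and KRT19 were also higher in replicate 3 of CA_IN and FA_IN. LAMB3 was lower (160 and 135 CPM in CA_IN, 173 and 123 in FA_IN). For KRT7, KRT8, EPCAM, CDH1 and ITGB4 the direction differed between CA_IN and FA_IN. S100A2 had 798 and 796 CPM in CA_IN and 862 and 839 CPM in FA_IN.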
